A study of Mus musculus with 20 samples.

Results

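Collagen chain genes encode the alpha chains of the collagens, and they were taken here as every gene of the deposited annotation whose symbol is Col, a number, the letter a and a number. That rule found 44 of 43432 genes, and all 44 are accounted for below. Transcript counts were deposited for 20 RNA-seq libraries of cultured nude mouse cells in 7 groups. C12 cells are labelled as macrophages transformed in a dish with SU3 and peritoneal washing cells, ih_CTC as transformed macrophages from a peritoneal xenograft, and ih_DCTC as bone marrow dendritic cells transformed in co-culture with SU3. The label of ih_STC_BM gives mesenchymal stem cells cultured from an SU3 tumour that was transplanted into a mouse with damaged and reconstructed bone marrow. The label of ih_BCTC gives oligodendrocytes recultured from an SU3 tumour in the brain. MDSC are labelled as myeloid-derived immunosuppressive cells and MSC as mesenchymal stem cells of normal mouse bone marrow. The series design names MDSC and MSC as precursors of the lines C12, ih_CTC, ih_DCTC and ih_STC_BM, and ih_BCTC is not in that list. There were 3 libraries of each group and 2 of MSC. All cells were kept in DMEM with fetal bovine serum and, per the labels, cultured as monoclones, so a line may be 1 clone. The labels do not describe SU3 further, and they do not say whether libraries of a group came from separate cultures, so p-values measure the spread between these libraries, which may be technical.

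A collagen molecule is a triple helix of alpha chains, and the chains of each type can come from several genes. Types I, III, V, II and XI form the striated fibrils of connective tissue, type IV forms the sheet of basement membranes, and type VI forms beaded filaments around cells. Fibroblasts and other mesenchymal cells are the main makers of fibrillar collagen, whereas cells of the blood lineage make little of it.

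The libraries held 8794768 to 12400624 counts, and 32 members passed the filter on low counts that 15779 genes passed. Values are CPM, the count relative to library size, scaled by the trimmed mean of M values (TMM), and a gene was called when its adjusted p in edgeR's quasi-likelihood test was under 0.05. Marker genes went against several labels. The summed level of 5 leukocyte markers was 4.55 to 11.7 CPM in C12 and 1.72 to 1.87 CPM in ih_DCTC, against 4605 to 4661 CPM in MDSC. The 5 dendritic cell markers summed to 4.14 to 11.1 CPM in ih_DCTC, against 2335 to 2416 CPM in MDSC. Most of the MDSC sum was H2-Aa, at 1336 to 1375 CPM, and H2-Ab1, at 931 to 975 CPM. Of the 5, only Zbtb46 overlapped between these groups, at 8.59, 3.08 and 6.71 CPM in ih_DCTC and 4.97, 5.53 and 6.18 in MDSC. The libraries labelled MSC held 1727 to 2659 CPM of the leukocyte markers and 4235 to 4913 CPM of 6 macrophage markers, which held 1191 to 1221 CPM in MDSC. In C12 those 6 summed to 27.7 to 70.8 CPM, and in ih_CTC to 9.39 to 11.9 CPM. Cd68 made up most of the C12 sum, at 49.5, 66.1 and 22.6 CPM, and overlapped MDSC, at 57.0, 58.3 and 54.2. Replicate 1 of ih_DCTC held 66.2 CPM of Cd68. Each other macrophage marker was lower in C12, ih_CTC and ih_DCTC than in any MDSC library. The 6 stromal markers summed to 259 to 1486 CPM in the lines, 46.1 to 48.6 CPM in MDSC and 329 to 398 CPM in MSC. Pdgfra, Pdgfrb and Prrx1 were at most 2.89 CPM in MDSC and at least 23.1 CPM in every line and MSC library. Nt5e went the other way, at 21.4, 20.2 and 19.9 CPM in MDSC. It was 6.56 and 3.25 CPM in MSC and at most 15.6 CPM in the lines. Thy1 was 11.9, 10.8 and 13.5 CPM in MDSC, against 0.312 and 1.23 in MSC, and only ih_CTC lay above MDSC. Eng was below every MDSC library in ih_BCTC and in replicates 1 and 2 of ih_DCTC, and above them elsewhere. In ih_BCTC the oligodendrocyte genes Olig2, Sox10 and Mog were at 0 in every library. In a mixture of cells, fewer cells of a type and less RNA per cell cannot be told apart. The share of reads in introns ran from 1.02 to 10.36%. Among the lines it was under 3% in replicates 1 and 2 of C12, replicate 1 of ih_DCTC and replicates 1 and 3 of ih_STC_BM. Replicate 1 of MSC was also under 3%, at 2.07%. The 3 MDSC libraries lay closest together, at a chi-square per degree of freedom of 1.69 to 3.14 for their pairs, against 23.9 to 262 for pairs of other groups, and were counted as 3.

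Several results below turn on the type IV chains, whose genes lie in head-to-head pairs. Col4a1 and Col4a2 encode the chains of the common basement membrane network and overlap by 22 bp at their starts on chromosome 8. Col4a5 and Col4a6, chains of the more restricted networks, start 1308 bp apart on the X chromosome. The third pair, Col4a3 and Col4a4, starts 71 bp apart on chromosome 1 and was nearly silent. The promoters of Col4a1, Col4a2, Col4a5 and Col4a6 are shown because the members of each pair are compared below, from 250 bases before to 50 after the start, as given by RefSeq for GRCm38.p6. Col4a1 is at chr8:11312777-11313076, minus strand. Col4a2 is at chr8:11312555-11312854, plus strand. Col4a5 is at chrX:141475169-141475468, plus strand. Col4a6 is at chrX:141474027-141474326, minus strand. Capitals mark each match, on either strand, to the CCAAT box, to the GC box GGGCGG, or to the TATA box TATAAA.
Col4a1: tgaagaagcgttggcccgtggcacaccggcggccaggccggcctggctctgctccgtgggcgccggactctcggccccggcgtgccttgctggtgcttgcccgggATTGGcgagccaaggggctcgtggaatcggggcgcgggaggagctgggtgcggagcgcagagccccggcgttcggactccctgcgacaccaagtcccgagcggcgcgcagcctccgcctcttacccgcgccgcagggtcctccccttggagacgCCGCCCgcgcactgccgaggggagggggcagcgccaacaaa
Col4a2: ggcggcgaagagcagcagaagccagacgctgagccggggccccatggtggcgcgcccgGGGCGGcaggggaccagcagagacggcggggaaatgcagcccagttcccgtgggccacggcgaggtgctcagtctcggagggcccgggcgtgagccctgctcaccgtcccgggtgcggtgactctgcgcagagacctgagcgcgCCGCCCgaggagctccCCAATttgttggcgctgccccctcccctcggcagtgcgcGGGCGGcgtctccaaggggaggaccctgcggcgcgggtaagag
Col4a5: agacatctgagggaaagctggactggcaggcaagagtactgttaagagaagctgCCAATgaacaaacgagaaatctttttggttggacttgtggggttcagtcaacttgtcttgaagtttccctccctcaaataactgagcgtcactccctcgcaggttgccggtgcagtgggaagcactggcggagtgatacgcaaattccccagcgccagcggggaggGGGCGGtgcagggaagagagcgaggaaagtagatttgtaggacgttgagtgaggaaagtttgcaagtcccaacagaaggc
Col4a6: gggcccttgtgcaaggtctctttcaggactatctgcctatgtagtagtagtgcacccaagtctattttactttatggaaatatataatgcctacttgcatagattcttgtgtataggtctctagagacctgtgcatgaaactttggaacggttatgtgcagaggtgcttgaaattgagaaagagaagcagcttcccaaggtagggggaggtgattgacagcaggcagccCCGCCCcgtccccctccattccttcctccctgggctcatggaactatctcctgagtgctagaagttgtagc

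Both chromosome 8 windows were rich in G and C, at 74.0% for Col4a1 and 73.7% for Col4a2, with 37 and 33 CpG. They share 78 bp, so part of one is the reverse complement of the other. The window of Col4a5 had 52.7% G and C with 11 CpG, and that of Col4a6 had 48.3% with 3 CpG. The medians of 32851 mouse promoters of the same length were 52.7% and 7 CpG. CCAAT stood in the windows of Col4a1, Col4a2 and Col4a5 and not in that of Col4a6, and 37.4% of all promoters hold it. GGGCGG stood in all 4 windows, 3 times in that of Col4a2, and 35.7% of all promoters hold it. TATAAA, found in 13.6% of all promoters, stood in none of the 4. These are matches of letters in these windows and were not tested for a factor.

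Collagen transcripts were plentiful in every line and in MSC and scarce in MDSC. The 44 genes took 1.09% ± 0.108 of all counts in C12, 0.773% ± 0.0621 in ih_CTC and 1.02% ± 0.147 in ih_DCTC (SD, n = 3 each). In ih_BCTC the share was 0.880% ± 0.263 (SD, n = 3). The 3 ih_STC_BM libraries held 1.39%, 1.13% and 0.271%, so the third had less than the lowest library of any other line. In MDSC the share was 0.00866% ± 0.000194 (SD, n = 3), and the 2 MSC libraries held 0.699% and 0.855%. Between 21 and 28 members reached 1 CPM in each line library. Col1a1, Col1a2, Col5a1, Col5a2, Col6a1 and Col16a1 were over 100 CPM in all 15 line libraries.

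**Figure D1:**
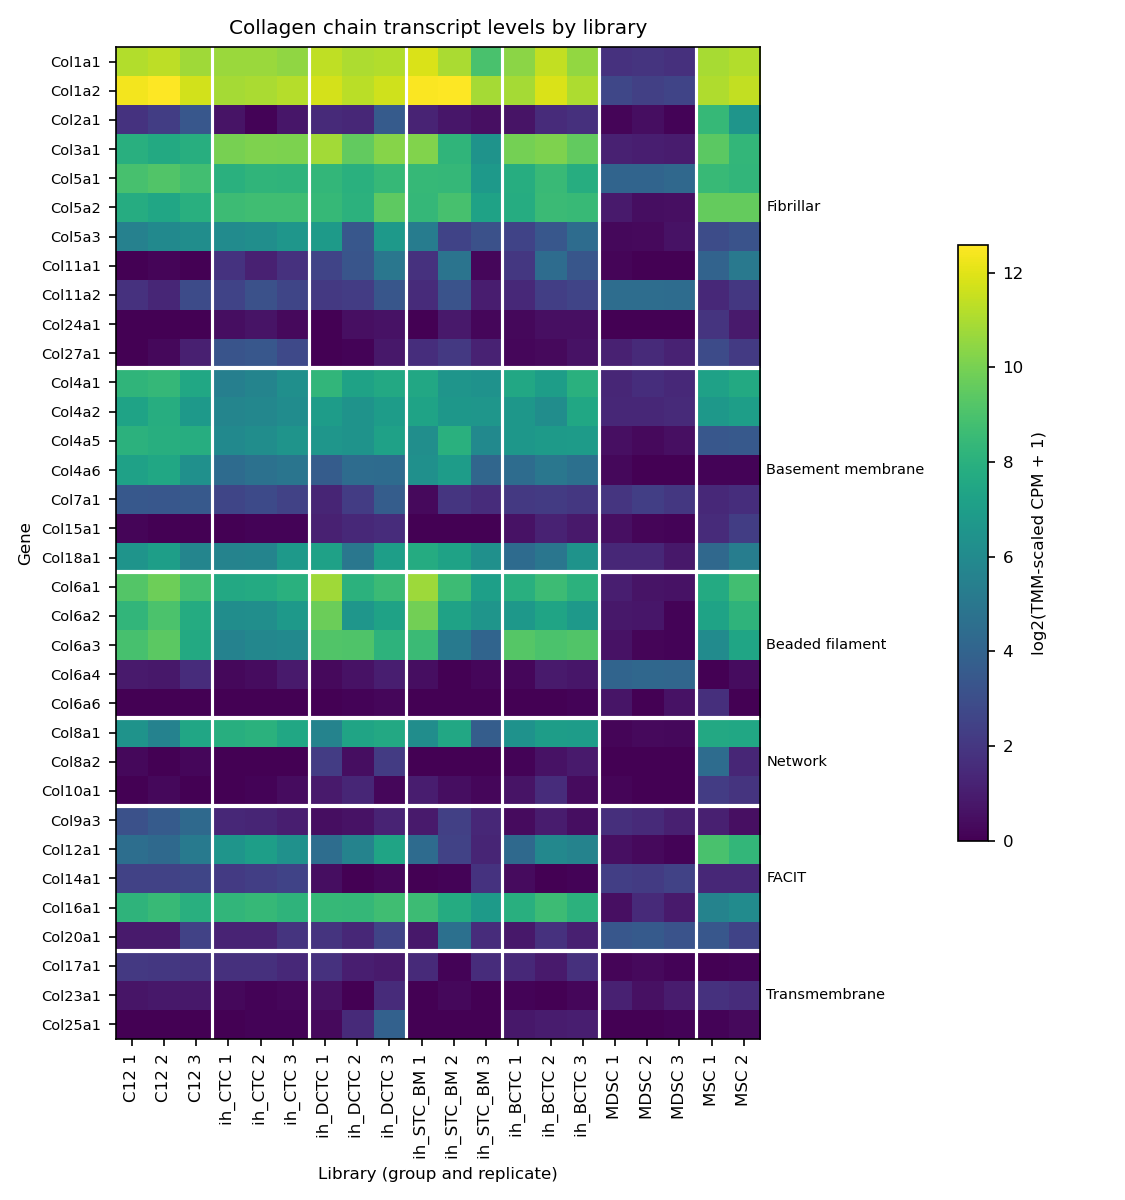
Level of 34 collagen genes, grouped by the structure their chains form (rows), in each of the 20 libraries (columns, labelled by group and replicate), coloured by log2(TMM-scaled CPM + 1). The 3 MDSC columns are dark for nearly all genes, and Col4a6 is bright in the lines and dark in MSC.

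Levels were divided by transcript length, as CPM per kb, to compare chains with each other. Type I collagen, the main fibril of skin, bone and tendon, took 64.3 to 68.3% of the summed collagen level in C12, 53.9 to 55.2% in ih_CTC, 45.2 to 61.4% in ih_DCTC, 58.6 to 74.1% in ih_STC_BM and 52.5 to 63.4% in ih_BCTC. It took 7.80 to 8.96% in MDSC and 55.2 to 60.8% in MSC. Col1a2 and then Col1a1 had the highest mean level per kb in each line and in MSC, at 924 and 372 CPM per kb in C12 and 458 and 350.2 in MSC. The next chain differed by group. By the group mean, Col6a1, of type VI, was the third in C12 and ih_STC_BM, whereas Col3a1, of type III, was the third in ih_CTC, ih_DCTC and ih_BCTC, and Col5a2 in MSC. Each single library had the chain of its group in that place, except replicate 1 of ih_DCTC, which had Col6a1, and replicate 1 of MSC, which had Col3a1. Type III took 1.498 to 2.87% of the summed level in C12 and 15.6 to 16.8% in ih_CTC. In MDSC the order was another one, led by Col11a2, Col6a4 and Col20a1 at means of 3.97, 2.24 and 2.13 CPM per kb.

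**Figure D2:**
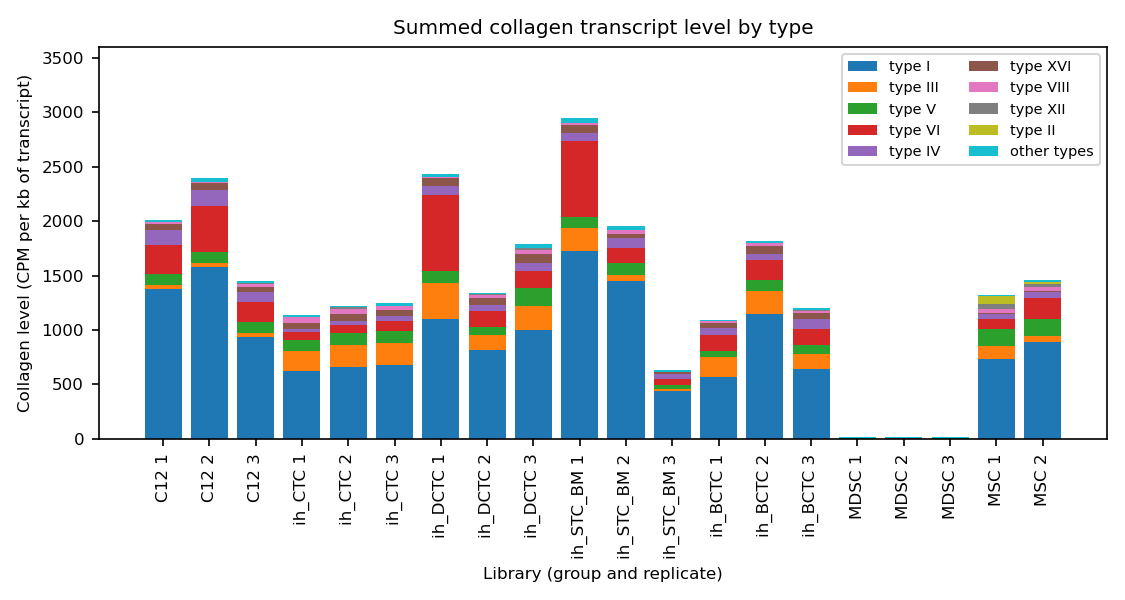
Summed collagen level in CPM per kb of transcript for each of the 20 libraries (bars), divided by collagen type (colours). Type I is the largest segment in every line and MSC library, replicate 3 of ih_STC_BM is the shortest line bar, and the MDSC bars are too low to see.

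The first question is how the 3 lines with myeloid labels differed from MDSC, which the series names as a precursor. The fibrillar chains of types I, III and V, the type IV chains and the 3 main type VI chains were higher in C12, ih_CTC and ih_DCTC than in MDSC, by far more than the spread between libraries, while Col6a4 and Col11a2 were lower. In C12, 21 of 32 tested members were higher and 2 lower than in MDSC, where 61.7% of all 15779 tested genes were called, 31.3% higher and 30.5% lower. In ih_CTC, 20 of 32 tested members were higher and 3 lower, where 55.3% of all 15779 tested genes were called, 28.2% higher and 27.1% lower. In ih_DCTC, 24 of 32 tested members were higher and 4 lower, where 59.3% of all 15779 tested genes were called, 31.2% higher and 28.1% lower. The median log2 fold change of the 32 members was 5.49, 5.01 and 6.83 for C12, ih_CTC and ih_DCTC, and it was 6.06, 5.07 and 6.56 with genes of at most 3 counts in a group set to their count ratio or bound. Over all tested genes it was 0.03, 0.08 and 0.09. The libraries of the line and of MDSC did not overlap for 25 of 32 tested members (beside 73% of all tested genes) in C12, 26 of 32 tested members (beside 80.4% of all tested genes) in ih_CTC and 29 of 32 tested members (beside 71.5% of all tested genes) in ih_DCTC. These 3 comparisons share the same MDSC libraries.

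Col1a1, which encodes the more abundant chain of the type I collagen helix, had 2256, 2582 and 1777 CPM in C12, 1624, 1635 and 1447 in ih_CTC, 2644, 2123 and 2268 in ih_DCTC, and 2.43, 2.77 and 2.34 in MDSC. No library of a line came near the MDSC libraries. Its log2 fold change over MDSC was 9.77 ± 0.68 (SE), adjusted p = 2.67e-09, in C12 with edgeR. In ih_CTC it was 9.28 ± 0.67 (SE), adjusted p = 3.51e-09, and in ih_DCTC 9.86 ± 0.68 (SE), adjusted p = 2.27e-09, with edgeR. Its partner Col1a2 had 5319, 6111 and 3389.7 CPM in C12, 1891, 2046 and 2342 in ih_CTC, 3508, 2477 and 3308 in ih_DCTC, and 5.41, 4.21 and 4.90 in MDSC. The groups did not overlap, and the log2 fold changes were 9.99 ± 0.56, 8.75 ± 0.54 and 9.32 ± 0.55 (SE) for C12, ih_CTC and ih_DCTC. Col3a1, the chain of type III collagen of soft tissues, had 241, 199.6 and 232 CPM in C12, 1019.6, 1143 and 1081 in ih_CTC, 1835, 748 and 1238 in ih_DCTC, and 1.21, 1.08 and 0.959 in MDSC. It was lower in every C12 library than in any library of the other 2 lines, and above MDSC in every library of the 3 lines. Col5a1, a chain of the type V collagen that starts fibrils, had 477, 578 and 435 CPM in C12 and 253, 295 and 289 in ih_CTC, against 15.6, 15.4 and 18.3 in MDSC, and its log2 fold change in C12 was 4.92 ± 0.39 (SE).

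The type VI chains Col6a1, Col6a2 and Col6a3, which build beaded filaments, were called higher in all 3 comparisons. Col6a3, the longest of them, had 487, 684 and 199 CPM in C12, 47.2, 55.6 and 61.0 in ih_CTC, 569, 549 and 275 in ih_DCTC, and 0.552, 0.120 and 0.107 in MDSC. Levels in ih_CTC were below those of every library of the other 2 lines, and all were above MDSC. The log2 fold change was 10.71 ± 1.26 (SE), adjusted p = 1.49e-06, in C12, 7.64 ± 1.17 (SE), adjusted p = 2.83e-05, in ih_CTC and 10.73 ± 1.26 (SE), adjusted p = 1.42e-06, in ih_DCTC, with edgeR. Col8a1, a chain of the type VIII network of vessel walls and the cornea, had 238, 259 and 176 CPM in ih_CTC, and 0.110, 0.240 and 0.213 in MDSC, which is 10.14 ± 1.07 (SE), adjusted p = 3.65e-07, on the log2 scale with edgeR. Basement membrane chains rose as well. Col4a1 had 297, 333 and 179 CPM in C12, 41.4, 50.6 and 75.7 in ih_CTC, 311, 150.2 and 191 in ih_DCTC, and 1.55, 2.16 and 1.70 in MDSC, and Col4a2 had 155, 228 and 111 CPM in C12, 51.0, 55.9 and 67.5 in ih_CTC, 122, 86.7 and 121 in ih_DCTC, and 1.66, 1.68 and 1.81 in MDSC. Both were lower in ih_CTC than in the other 2 lines in every library. Col4a6 had 2 counts in all MDSC libraries together, so its rise is given as a count ratio. In C12 it was 1713-fold, with a 95% counting interval of 474 to 14149.8, in ih_CTC 332-fold, with a 95% counting interval of 91.6 to 2746, and in ih_DCTC 244-fold, with a 95% counting interval of 67.1 to 2016, which cover counting error only.

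A few members were higher in MDSC. Col6a4, a further type VI chain, had 0.879, 0.767 and 2.04 CPM in C12, 0.192, 0.326 and 0.856 in ih_CTC, 0.249, 0.527 and 1.09 in ih_DCTC, and 15.3, 17.2 and 17.05 in MDSC. It was low in every line library, and the log2 fold change was -3.71 ± 0.75 (SE), adjusted p = 4.14e-04, in C12, -5.13 ± 0.82 (SE), adjusted p = 4.69e-05, in ih_CTC and -4.68 ± 0.80 (SE), adjusted p = 8.66e-05, in ih_DCTC, with edgeR. Col11a2, a minor fibrillar chain of cartilage, had 2.42, 1.53 and 6.27 CPM in C12, 4.71, 7.84 and 5.14 in ih_CTC, 3.24, 3.76 and 9.34 in ih_DCTC, and 21.5, 21.9 and 20.8 in MDSC. All 3 groups lay below MDSC without overlap, at log2 fold changes of -2.63 ± 0.68, -1.86 ± 0.65 and -1.97 ± 0.66 (SE). Col20a1, a fibril-associated chain, had 1.35, 1.39 and 2.74 CPM in ih_CTC, and 9.50, 10.9 and 8.31 in MDSC, which is -2.38 ± 0.95 (SE), adjusted p = 0.0409, on the log2 scale with edgeR. Col14a1 and Col27a1 were lower in ih_DCTC than in MDSC, at log2 fold changes of -4.51 ± 1.10 and -2.33 ± 0.94 (SE), while Col27a1 was higher in ih_CTC, at 2.48 ± 0.82. The Col27a1 call in ih_DCTC was lost without replicate 1 or 2 of ih_DCTC or any 1 of the MDSC libraries, at an adjusted p of up to 0.138 in edgeR, and that in ih_CTC without replicate 1 or 3 of MDSC. MDSC libraries also had the highest intron shares, 9.64 to 10.36%, and with the intron share in the edgeR fit the Col6a4 log2 fold change in C12 was -2.84 (adjusted p = 0.1). Col6a4 remained called in ih_CTC, at -4.69 (adjusted p = 3.08e-04), and in ih_DCTC, at -3.99 (adjusted p = 0.00783), in that edgeR fit. The adjusted p with the intron share was 0.443 for Col27a1 in ih_DCTC, at a log2 fold change of -1.05, 0.849 for Col11a2 in C12, 0.326 in ih_CTC and 0.933 in ih_DCTC, and 0.4 for Col20a1. Leaving out replicate 1 or 3 of ih_CTC, or replicate 1 or 2 of ih_DCTC, also ended the Col11a2 call in that line, and leaving out any library of either group ended that of Col20a1 in ih_CTC.

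**Figure D3:**
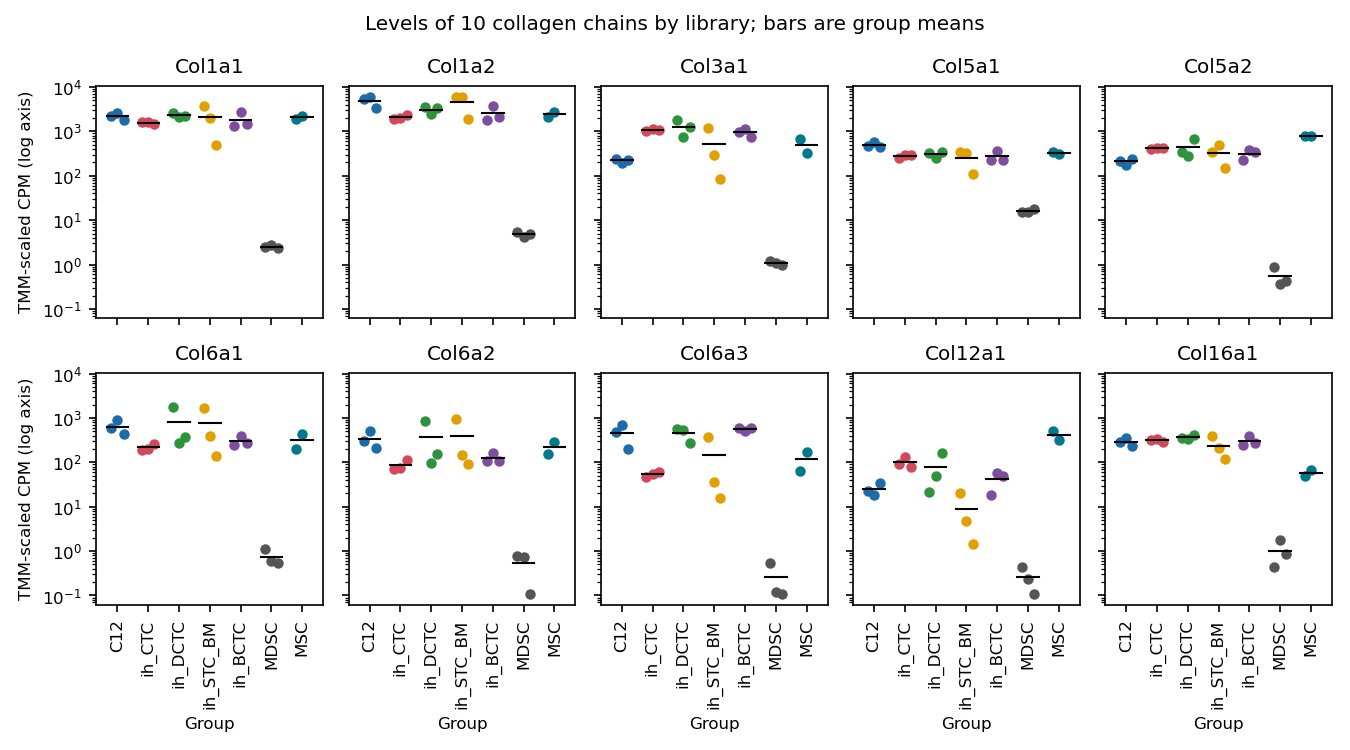
TMM-scaled CPM (log axis) of 10 collagen chains in each library (points) of the 7 groups, with the group mean as a bar. MDSC lies at the bottom of each panel, and Col5a2 and Col12a1 are the panels in which both MSC libraries lie above every line library.

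The second question is how the lines compared with MSC, the group labelled as normal mesenchymal stem cells. Here the type IV chains Col4a5 and Col4a6 and the fibril-associated Col16a1 were higher in each line, and Col2a1 was lower in each line. The chains of type I, III and VI collagen were called in none of the 5 comparisons with all libraries and no covariate. Some of them were called in other fits, as given below. In C12, 7 of 32 tested members were higher and 8 lower than in MSC, where 33.1% of all 15779 tested genes were called, 14.7% higher and 18.4% lower. In ih_CTC, 5 of 32 tested members were higher and 8 lower, where 34.6% of all 15779 tested genes were called, 14.7% higher and 19.9% lower. In ih_DCTC, 6 of 32 tested members were higher and 4 lower, where 34.1% of all 15779 tested genes were called, 16% higher and 18.1% lower. In ih_STC_BM, 5 of 32 tested members were higher and 6 lower, where 32.1% of all 15779 tested genes were called, 14.8% higher and 17.4% lower. In ih_BCTC, 4 of 32 tested members were higher and 7 lower, where 36.7% of all 15779 tested genes were called, 15.9% higher and 20.8% lower. The members' share was near that of all genes in ih_DCTC, ih_STC_BM and ih_BCTC. The median log2 fold change of the 32 members was between -0.32 in ih_CTC and 0.54 in C12, the same with count ratios and bounds, and it was between 0.00 and 0.05 over all tested genes. The libraries of the line and of MSC did not overlap for 27 of 32 tested members (beside 54.6% of all tested genes) in C12, 26 of 32 tested members (beside 71.6% of all tested genes) in ih_CTC, 15 of 32 tested members (beside 54.6% of all tested genes) in ih_DCTC, 14 of 32 tested members (beside 46.5% of all tested genes) in ih_STC_BM and 19 of 32 tested members (beside 70.9% of all tested genes) in ih_BCTC. The 5 comparisons share the same 2 MSC libraries, which also hold the macrophage transcripts given above. The 5 pericyte and smooth muscle markers summed to 18.8 to 178 CPM in the lines, against 1476 to 2446 CPM in MSC. Nearly all of the MSC sum was Acta2, at 1748 and 950 CPM, and Tagln, at 695 and 517 CPM. Cspg4 went the other way, at 4.56 to 149 CPM in the lines against 1.35 and 4.83 in MSC. Rgs5 and Myh11 were at most 2.28 CPM in any library. The part of these transcripts in the differences was not tested.

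Col4a6 had 148, 177 and 79.0 CPM in C12, 20.3, 24.9 and 28.8 in ih_CTC, 11.8, 20.8 and 19.8 in ih_DCTC, 77.4, 123 and 16.9 in ih_STC_BM, 21.1, 30.3 and 23.8 in ih_BCTC, 0.221, 0 and 0 in MDSC, and 0.104 and 0.0878 in MSC. It was 11.8 CPM or more in every line library and at most 0.104 CPM in MSC, where the 2 libraries together held 2 counts. The count ratio over MSC was 1344-fold, with a 95% counting interval of 372 to 11099.8, in C12, and 829-fold, with a 95% counting interval of 229 to 6852, in ih_STC_BM. It was 260.5-fold, with a 95% counting interval of 71.9 to 2154, in ih_CTC, 191-fold, with a 95% counting interval of 52.7 to 1582, in ih_DCTC, and 261-fold, with a 95% counting interval of 72.1 to 2161, in ih_BCTC. Adjusted p in edgeR ran from 8.28e-07 in C12 to 1.80e-05 in ih_DCTC. Col4a5, its neighbour, had 275, 239 and 224 CPM in C12, 61.9, 71.7 and 89.98 in ih_CTC, 95.6, 86.2 and 148 in ih_DCTC, 74.4, 252 and 61.7 in ih_STC_BM, 99.2, 116 and 119 in ih_BCTC, 0.442, 0.240 and 0.426 in MDSC, and 9.79 and 10.4 in MSC. Every line library lay above both MSC libraries. Its log2 fold change over MSC was 4.60 ± 0.54 (SE), adjusted p = 5.12e-06, in C12 with edgeR, 3.68 ± 0.52 (SE), adjusted p = 3.37e-05, in ih_STC_BM and 3.46 ± 0.51 (SE), adjusted p = 4.59e-05, in ih_BCTC. In ih_CTC it was 2.88 ± 0.50 (SE), adjusted p = 2.22e-04, and in ih_DCTC 3.44 ± 0.51 (SE), adjusted p = 5.32e-05.

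Col16a1, a minor fibril-associated chain, had 284, 357 and 239.8 CPM in C12, 314, 344 and 289 in ih_CTC, 347, 334 and 417 in ih_DCTC, 393, 209 and 116 in ih_STC_BM, 244, 395 and 275 in ih_BCTC, 0.442, 1.80 and 0.852 in MDSC, and 49.2 and 65.9 in MSC. The lowest line library, replicate 3 of ih_STC_BM, still exceeded both MSC libraries. Its log2 fold changes over MSC were 2.35 ± 0.47, 2.46 ± 0.48, 2.67 ± 0.48, 2.06 ± 0.47 and 2.41 ± 0.47 (SE) for C12, ih_CTC, ih_DCTC, ih_STC_BM and ih_BCTC, with adjusted p in edgeR of 3.41e-04 to 0.00263. Col17a1, the transmembrane collagen of epithelial hemidesmosomes, was low in all groups, at up to 3.30 CPM in C12, and MSC held 1 count of it. It was called higher in each line, with a count ratio in C12 of 64.4-fold, with a 95% counting interval of 11.3 to 2569. The calls in ih_DCTC and ih_STC_BM were lost without replicate 1 of MSC. Col5a3, a type V chain of limited distribution, had 44.4, 60.7 and 70.4 CPM in C12, 65.0, 73.4 and 95.4 in ih_CTC, 113, 9.78 and 107 in ih_DCTC, 38.4, 4.87 and 7.77 in ih_STC_BM, 4.81, 9.81 and 20.5 in ih_BCTC, and 6.56 and 8.17 in MSC. It was called higher in C12, ih_CTC and ih_DCTC, at log2 fold changes of 2.99 ± 0.94, 3.40 ± 0.95 and 3.38 ± 0.95 (SE), although replicate 2 of ih_DCTC was near MSC. These Col5a3 calls were lost without either MSC library, with adjusted p of up to 0.142 in edgeR. Col25a1, a neuronal transmembrane collagen, had 0.249, 1.81 and 13.9 CPM in ih_DCTC, and 0.104 and 0.263 in MSC. Replicate 3 of ih_DCTC was far above the others, and the call, 4.74 ± 1.41 (SE), adjusted p = 0.0187 with edgeR, was lost without that library or either MSC library.

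Col2a1, the main fibril chain of cartilage, was called lower in all 5 lines. It had 2.64, 3.95 and 9.48 CPM in C12, 0.577, 0.0816 and 0.685 in ih_CTC, 1.87, 1.66 and 11.2 in ih_DCTC, 1.36, 0.710 and 0.440 in ih_STC_BM, 0.601, 1.89 and 2.35 in ih_BCTC, 0.110, 0.361 and 0.107 in MDSC, and 348 and 94.4 in MSC. MSC differed between its own libraries (348 and 94.4 CPM), yet both lay above every line library. The log2 fold change over MSC was -8.93 ± 1.02 (SE), adjusted p = 2.94e-06, in ih_CTC with edgeR, -8.01 ± 0.98 (SE), adjusted p = 7.34e-06, in ih_STC_BM and -7.10 ± 0.92 (SE), adjusted p = 1.13e-05, in ih_BCTC. It was -5.35 ± 0.85 (SE), adjusted p = 1.07e-04, in C12 and -5.49 ± 0.85 (SE), adjusted p = 8.19e-05, in ih_DCTC. The chondrocyte markers Acan, Sox9, Matn3 and Comp summed to 126 to 173 CPM in C12 and 10.0 to 10.9 CPM in MSC, where Acan was at 0 in both libraries. Sox9 made up 125, 136 and 172 CPM of that sum in C12, against 3.96 and 8.78 CPM in MSC, while Comp was at 0.220, 0.658 and 0.941 CPM in C12, against 6.98 and 0.878 CPM in MSC. Bone markers summed to at most 8.89 CPM in any line library, against 98.6 to 167 CPM in MSC. Most of the MSC sum was Alpl, at 131 and 65.5 CPM, with Sp7 at 23.8 and 18.7 and Ibsp at 11.5 and 14.4. Bglap was at 0.208 and 0 CPM in MSC and at most 0.440 CPM in the lines. The part of these chondrocyte and bone markers in the difference was not tested. Col12a1, a fibril-associated chain of tendon and loaded tissue, had 22.2, 18.4 and 34.7 CPM in C12, 93.8, 129.7 and 80.1 in ih_CTC, 21.7, 48.9 and 163 in ih_DCTC, 20.3, 4.66 and 1.47 in ih_STC_BM, 18.5, 58.4 and 48.3 in ih_BCTC, 0.442, 0.240 and 0.107 in MDSC, and 507 and 322 in MSC. All line libraries lay below MSC, and the log2 fold change was -5.55 ± 0.89 (SE), adjusted p = 1.28e-04, in ih_STC_BM, -4.04 ± 0.83 (SE), adjusted p = 0.00115, in C12, -3.31 ± 0.81 (SE), adjusted p = 0.00387, in ih_BCTC and -2.41 ± 0.79 (SE), adjusted p = 0.0251, in ih_DCTC, with edgeR. In ih_CTC it was -2.03 ± 0.78 (SE), adjusted p = 0.0536, and not called. The call in ih_DCTC was lost without its replicate 1 or 2 or without replicate 1 of MSC.

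Col8a2, a chain of the type VIII network, had 0.220, 0 and 0.157 CPM in C12, 0, 0 and 0 in ih_CTC, 3.74, 0.376 and 3.63 in ih_DCTC, 0, 0 and 0 in ih_STC_BM, 0.0751, 0.516 and 0.904 in ih_BCTC, 0, 0 and 0 in MDSC, and 20.7 and 1.58 in MSC. MSC rested on its replicate 1. With 0 counts in ih_CTC and in ih_STC_BM, its level was at least 118-fold lower in ih_CTC and at least 85.4-fold lower in ih_STC_BM than in MSC, with 3 counts over the group as the floor. In C12 and ih_BCTC the calls were lost without replicate 1 of MSC, with adjusted p of 0.113 and 0.429 in edgeR. Col11a1, the main type XI chain, had 0, 0.110 and 0 CPM in C12, 2.60, 1.22 and 2.48 in ih_CTC, 4.98, 8.88 and 30.8 in ih_DCTC, 2.47, 27.9 and 0.147 in ih_STC_BM, 3.15, 20.8 and 9.31 in ih_BCTC, 0.110, 0 and 0 in MDSC, and 14.8 and 32.7 in MSC. C12 held 1 count, a level 759-fold, with a 95% counting interval of 136 to 30017, lower than in MSC. Col11a1 was also called lower in ih_CTC, at a log2 fold change of -3.50. That call was lost without any 1 of the ih_CTC libraries or replicate 2 of MSC. Col5a2, the second type V chain, had 221, 172 and 245 CPM in C12, 397, 417 and 425 in ih_CTC, 349, 273 and 691 in ih_DCTC, 337, 485 and 149.6 in ih_STC_BM, 222, 375 and 353 in ih_BCTC, and 771 and 787 in MSC, and every line library was below MSC. It was called lower in C12, at -1.87 ± 0.43 (SE), adjusted p = 0.00284 with edgeR, in ih_STC_BM, at -1.27 ± 0.43 (SE), adjusted p = 0.0322, and in ih_BCTC, at -1.30 ± 0.43 (SE), adjusted p = 0.0248. Both of the last calls were lost without either MSC library, and also without replicate 1 or 3 of ih_STC_BM and replicate 1 of ih_BCTC.

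With all libraries and no covariate, Col1a1, Col1a2, Col3a1, Col5a1, Col6a1, Col6a2, Col6a3 and Col8a1 were not called against MSC in any line. With the intron share in the edgeR fit, Col8a1 was called lower in each line, at adjusted p of 8.24e-04 to 0.045. Col6a3 was then called higher in ih_DCTC and ih_BCTC, at 0.0265 and 0.0115. Leaving out replicate 3 of the line added a call of Col1a2 in C12 and in ih_STC_BM. Without replicate 2 of ih_STC_BM, Col8a1 was called lower there, at an adjusted p of 0.0248 in edgeR. Leaving out replicate 1 of ih_STC_BM added calls of Col3a1 and Col6a3 there, both lower. For Col1a1 the log2 fold change over MSC was 0.09 ± 0.51, -0.40 ± 0.51, 0.18 ± 0.51, 0.00 ± 0.51 and -0.17 ± 0.51 (SE) in C12, ih_CTC, ih_DCTC, ih_STC_BM and ih_BCTC. Col1a1 had 3719, 2018 and 496 CPM in ih_STC_BM and 1334, 2707 and 1502 in ih_BCTC, against 1948 and 2205 in MSC. Col1a2 had 5869.9, 5942 and 1916 CPM in ih_STC_BM and 1855, 3713 and 2099 in ih_BCTC, against 2146 and 2756 in MSC. Replicate 3 of ih_STC_BM fell below MSC for both chains. None of these passed the test, which does not show equal levels. Col1a2 in C12 was not called, at 1.01 ± 0.44 (SE), adjusted p = 0.0868 with edgeR. Col3a1 had 1189, 295 and 86.4 CPM in ih_STC_BM and 985, 1138 and 743 in ih_BCTC, against 669 and 319 in MSC. The ih_STC_BM libraries lay on both sides of MSC and those of ih_BCTC above it, with no call in either line. Col5a1 had 321, 254 and 346 CPM in ih_DCTC, 338, 327 and 110.0 in ih_STC_BM and 226, 371 and 231 in ih_BCTC, against 349 and 307 in MSC, and was not called. Col8a1 had 87.6, 46.3 and 173 CPM in C12, 49.2, 159.9 and 189 in ih_DCTC, 69.7, 185 and 12.02 in ih_STC_BM, 83.4, 127 and 124 in ih_BCTC, and 195 and 177 in MSC, and was not called. Col6a1 had 583, 901 and 436 CPM in C12, 194, 204 and 253 in ih_CTC, 1749, 274 and 382 in ih_DCTC, 1720.2, 399 and 137 in ih_STC_BM, 245, 392 and 271 in ih_BCTC, 1.10, 0.601 and 0.533 in MDSC, and 203 and 430.1 in MSC. Replicate 1 of ih_DCTC and replicate 1 of ih_STC_BM stood far above the rest of their groups. Col6a2 had 309, 509.7 and 211 CPM in C12, 72.0, 74.4 and 112 in ih_CTC, 871, 97.6 and 153 in ih_DCTC, 961, 149 and 94.0 in ih_STC_BM, 105, 159 and 106 in ih_BCTC, 0.773, 0.721 and 0.107 in MDSC, and 157 and 289.7 in MSC, with the same 2 libraries on top. Their intron shares were 2.33 and 2.34%, while replicate 3 of ih_STC_BM, at 1.79%, had the lowest Col6a1 and Col6a2 of its group. The part of the intron share in these Col6a1 and Col6a2 levels was not tested. Col6a3 had 383, 35.4 and 15.8 CPM in ih_STC_BM and 603, 513 and 580.1 in ih_BCTC, against 65.5 and 169 in MSC. Its change in ih_BCTC was 2.27 ± 0.95 (SE), adjusted p = 0.0702 with edgeR, and missed the threshold.

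In ih_CTC the 2 common basement membrane chains were below MSC. Col4a1 had 41.4, 50.6 and 75.7 CPM in ih_CTC, against 147 and 198 in MSC, and Col4a2 had 51.0, 55.9 and 67.5 CPM in ih_CTC, against 103 and 131 in MSC. The log2 fold changes were -1.63 ± 0.41 (SE), adjusted p = 0.00487, for Col4a1 and -1.01 ± 0.35 (SE), adjusted p = 0.0342, for Col4a2, with edgeR. Leaving out replicate 2 of MSC ended the Col4a1 call, and leaving out either MSC library or replicate 1 or 2 of ih_CTC ended that of Col4a2. With the intron share in the edgeR fit, the Col4a2 call was also lost, at -0.72 (adjusted p = 0.143). Col4a1 remained called in that edgeR fit, at -1.15 (adjusted p = 0.0364). In the other 4 lines neither chain was called. Col4a1 had 186, 94.9 and 83.7 CPM in ih_STC_BM and 183, 129 and 255 in ih_BCTC, and Col4a2 had 155, 100.2 and 95.9 in ih_STC_BM and 101, 72.0 and 178 in ih_BCTC. Counts of called members rose when the 5 line libraries of low intron share were left out, to 22 in ih_CTC, 16 in ih_DCTC and 21 in ih_BCTC. The share of all tested genes called rose with them, to 54.8, 51.3 and 56.4%. Replicate 1 of MSC, with an intron share of 2.07%, was kept in that fit. The count fell to 5 in ih_DCTC without replicate 1 of MSC.

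**Figure D4:**
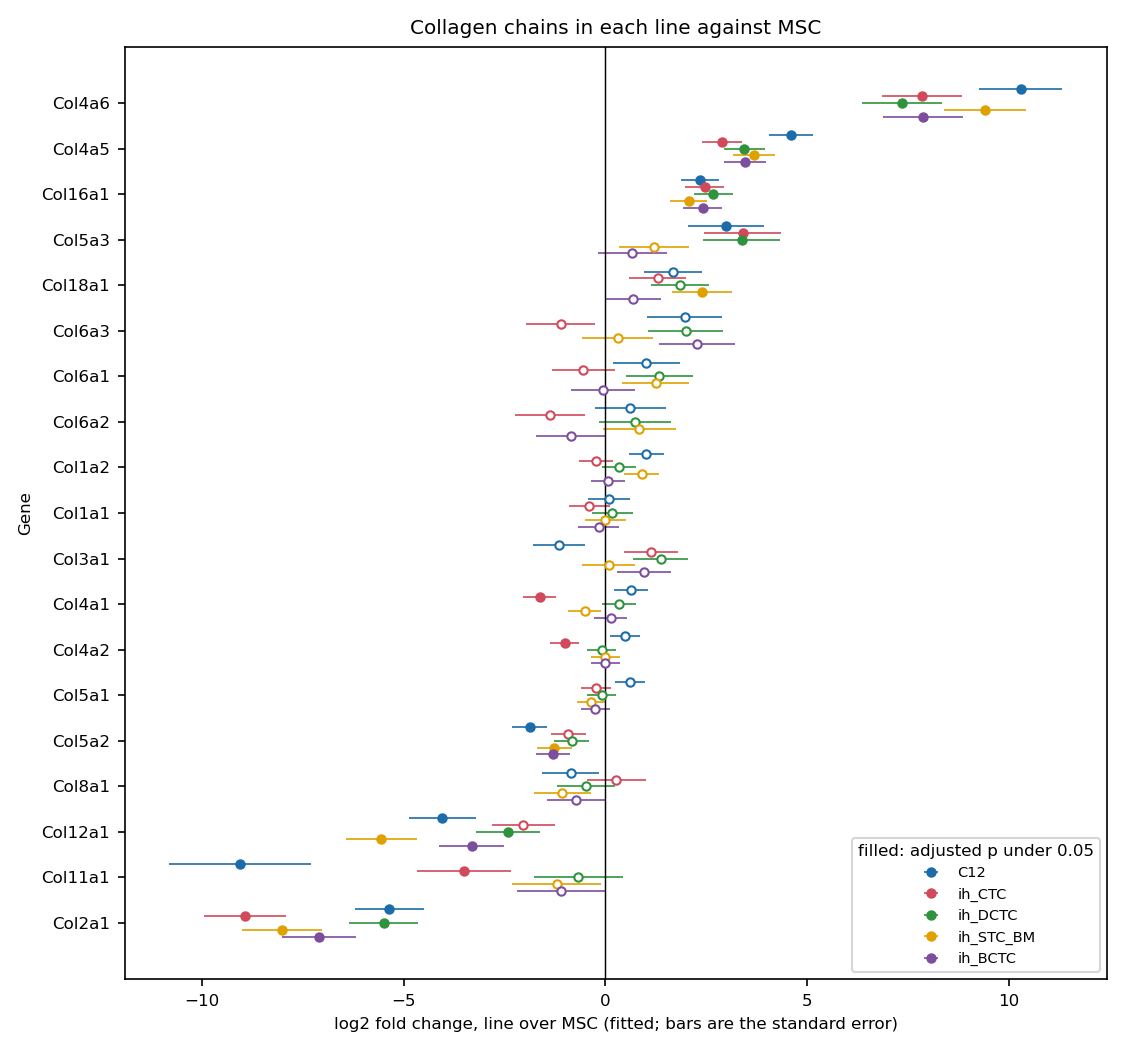
Fitted log2 fold change of each line over MSC (horizontal axis, bars are the standard error) for 19 collagen genes (rows), coloured by line and filled where the adjusted p was under 0.05. Col4a6 and Col4a5 lie to the right for all 5 lines and Col2a1 to the left, and Col1a1 lies near 0; fitted values of Col4a6 rest on 2 counts in MSC.

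The 2 groups named as precursors differed from each other as well. In MDSC, 2 of 32 tested members were higher and 21 lower than in MSC, where 46% of all 15779 tested genes were called, 20.4% higher and 25.6% lower. The median log2 fold change of the members was -5.26, and that of all tested genes -0.07. The libraries did not overlap for 29 of 32 tested members (beside 82.1% of all tested genes). Col5a2 had 0.883, 0.361 and 0.426 CPM in MDSC, against 771 and 787 in MSC, a log2 fold change of -10.41 ± 0.62 (SE), adjusted p = 1.99e-09, with edgeR. Col12a1 had 0.442, 0.240 and 0.107 CPM in MDSC, against 507 and 322 in MSC, at -10.56 ± 1.17 (SE), adjusted p = 1.64e-06. The 2 members higher in MDSC were Col6a4, at 6.39 ± 1.09 (SE), adjusted p = 1.50e-04, and Col11a2, at 3.11 ± 0.82 (SE), adjusted p = 0.00496, with edgeR. Col6a4 had 15.3, 17.2 and 17.05 CPM in MDSC, against 0 and 0.351 in MSC, and Col11a2 had 21.5, 21.9 and 20.8 in MDSC, against 1.77 and 3.16 in MSC. The Col11a2 call was lost without replicate 1 of MSC, at an adjusted p of 0.0677, and with the intron share in the fit, at 0.757. Col4a6 was at or near 0 in both groups and Col1a1 had 2.43, 2.77 and 2.34 CPM in MDSC, against 1948 and 2205 in MSC.

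The third question is whether the 5 lines differed from each other, with neither MDSC nor MSC as a baseline. They did so for 18 of 32 tested members, where 33.2% of all tested genes were called. The spread in that test still came from the fit of all 20 libraries, MDSC and MSC included. In a fit of the line libraries alone, 12 of the 18 members were called, beside 24.5% of all tested genes. The 4 members with the smallest adjusted p were Col9a3 (8.68e-05), Col15a1 (1.97e-04), Col27a1 (6.25e-04) and Col4a6 (8.46e-04) in edgeR's joint test. Col1a1, Col1a2, Col5a1, Col5a2, Col6a1, Col6a2 and Col16a1 were not called. In C12, 9 members were higher and 2 lower than the mean of the other 4 lines, where 16.3% of all 15779 tested genes were called, 10.7% higher and 5.56% lower. All 4 tested type IV chains were higher there. Col4a6 had 148, 177 and 79.0 CPM in C12, and the lowest, median and highest of the other 12 line libraries were 11.8, 22.4 and 123 CPM. Of the other lines, replicate 2 of ih_STC_BM at 123 CPM, was within the range of C12, and the log2 fold change was 2.18 ± 0.35 (SE), adjusted p = 3.36e-04, with edgeR. Col4a5 was 1.24 ± 0.28, Col4a1 1.06 ± 0.27 and Col4a2 0.76 ± 0.24 (SE) higher on the log2 scale. The calls of Col4a1 and Col4a2 were lost without replicate 1 or 2 of C12, and that of Col4a2 also without any of replicate 1 or 2 of ih_CTC, replicate 2 of ih_DCTC or replicate 1 of ih_BCTC. Col9a3, a chain of the fibril-associated type IX collagen of cartilage, had 7.58, 11.2 and 18.7 CPM in C12, against a lowest, median and highest of 0.300, 1.03 and 4.16 CPM in the other lines. Its groups did not overlap, which held for 4 of 32 tested members (beside 4.82% of all tested genes), and the log2 fold change was 3.54 ± 0.40 (SE), adjusted p = 9.05e-06, with edgeR. Of its exon bases, 6.1% overlap Tcfl5 on the other strand, and the sources used here do not say whether counting used strand. The other chains of type IX, Col9a1 and Col9a2, were at or near 0 everywhere. Col11a1 went the other way, with 1 count in C12 and 0.147, 4.07 and 30.8 CPM as the lowest, median and highest in the other lines. Its count ratio was 304-fold, with a 95% counting interval of 54.5 to 12027, lower. Col3a1 was also lower, with 241, 199.6 and 232 CPM in C12 against 86.4, 1050.5 and 1835 CPM, at -2.02 ± 0.54 (SE), adjusted p = 0.015 with edgeR. Replicate 3 of ih_STC_BM lay below C12 and replicate 2 above it, and that call was lost without replicate 1 or 2 of C12. The calls of Col2a1, Col5a1 and Col7a1 were each lost without at least 1 C12 library. Smaller rises of Col2a1, Col5a1, Col7a1 and Col14a1 made up the rest.

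In ih_CTC, 3 members were higher and 3 lower than in the other 4 lines, where 11.9% of all 15779 tested genes were called, 6.53% higher and 5.41% lower. Col27a1, a fibrillar chain of cartilage, had 8.65, 9.71 and 5.74 CPM in ih_CTC, against a lowest, median and highest of 0, 0.400 and 3.24 CPM. Its groups did not overlap, which held for 3 of 32 tested members (beside 5.97% of all tested genes), at 3.81 ± 0.55 (SE), adjusted p = 2.17e-04 with edgeR. Col6a3 had 47.2, 55.6 and 61.0 CPM in ih_CTC, against 15.8, 500.5 and 684 CPM. Replicates 2 and 3 of ih_STC_BM were lower still, and the change, -2.73 ± 0.75 (SE), adjusted p = 0.0257, was lost without any 1 of the ih_CTC libraries. Col4a1 was lower, at -1.78 ± 0.33 (SE), adjusted p = 0.00222 with edgeR, and so was Col4a2, at -1.11 ± 0.27 (SE), adjusted p = 0.0153. For Col4a1, no ih_CTC library reached the lowest value of the other lines, 83.7 CPM. Col12a1 and Col14a1 were higher, at log2 fold changes of 1.79 ± 0.51 and 2.83 ± 0.64 (SE). The Col12a1 call was lost without replicate 2 of C12 or any 1 of the ih_CTC libraries, at an adjusted p of up to 0.173 in edgeR, and with the intron share in the fit, at 0.0893. That of Col4a2 was lost without replicate 1 or 2 of ih_CTC, at up to 0.0984.

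In ih_DCTC, 4 members were higher and 1 lower, where 7.39% of all 15779 tested genes were called, 6.39% higher and 1% lower. Col25a1 led by fold, on 0.249, 1.81 and 13.9 CPM in ih_DCTC against 0, 0 and 1.08 CPM, and its value rests on replicate 3. Col11a1 had 4.98, 8.88 and 30.8 CPM in ih_DCTC against 0, 2.47 and 27.9 CPM, overlapping with other lines, at 3.04 ± 0.80 (SE), adjusted p = 0.0261 with edgeR. That call was lost without replicate 3 of ih_DCTC or replicate 1 of C12. Col15a1, the type XV proteoglycan of basement membrane zones, had 1.25, 1.73 and 1.995 CPM in ih_DCTC against 0, 0.0408 and 1.29 CPM, at 4.46 ± 0.57 (SE), adjusted p = 1.27e-04. Col8a2 had 3.74, 0.376 and 3.63 CPM in ih_DCTC against 0, 0 and 0.904 CPM, at 5.50 ± 0.99 (SE), adjusted p = 0.00503. Col4a6 was the lower one, at -1.50 ± 0.45 (SE), adjusted p = 0.0493, and leaving out any of most line libraries, replicates 2 and 3 of ih_STC_BM and replicate 3 of C12 excepted, ended that call. In ih_STC_BM, 1 member was higher and 3 lower, where 17.1% of all 15779 tested genes were called, 11% higher and 6.05% lower. Col12a1 had 20.3, 4.66 and 1.47 CPM in ih_STC_BM against 18.4, 48.6 and 163 CPM, at -2.60 ± 0.69 (SE), adjusted p = 0.016 with edgeR, and the call was lost without replicate 3. Col20a1 had 0.740, 24.2 and 2.05 CPM in ih_STC_BM, so the call rests on replicate 2, and without it the log2 fold change was -0.66. Col7a1, the anchoring fibril chain of skin, and Col15a1 were the other lower members, and both calls were lost when any of several libraries, replicates 1 and 3 of ih_STC_BM among them, was left out. In ih_BCTC, 2 members were higher and 1 lower, where 8.63% of all 15779 tested genes were called, 4.76% higher and 3.87% lower. Col15a1 and Col25a1 were higher, at log2 fold changes of 3.31 ± 0.60 and 3.45 ± 0.99, and Col9a3 was lower, at -2.11 ± 0.58 (SE), all at levels of at most 1.29 CPM in ih_BCTC. The Col25a1 call was lost without any 1 library of C12, ih_CTC, ih_BCTC or ih_STC_BM, and that of Col9a3 without replicate 1 or 3 of ih_BCTC.

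Chains that assemble into 1 molecule were set side by side per kb. The helix of type I collagen takes more of the Col1a1 chain than of Col1a2, and the ratio of the Col1a1 to the Col1a2 level was 0.383, 0.381 and 0.473 in C12, 0.775, 0.721 and 0.557 in ih_CTC, 0.680, 0.773 and 0.618 in ih_DCTC, 0.571, 0.306 and 0.234 in ih_STC_BM, 0.648, 0.657 and 0.645 in ih_BCTC, 0.405, 0.593 and 0.431 in MDSC, and 0.819 and 0.721 in MSC. It was below 1 in every library, and lower in every C12 library than in any of ih_CTC, ih_DCTC, ih_BCTC or MSC. With the union of all exons as the length, an alternative chosen after seeing the data, the ratio was 0.803, 0.800 and 0.992 in C12 and 1.72 and 1.51 in MSC, so the level depends on the length used, while the order of the libraries does not. For Col4a1 to Col4a2 the ratio was 1.88, 1.43 and 1.57 in C12, 0.793, 0.883 and 1.09 in ih_CTC, 2.49, 1.69 and 1.54 in ih_DCTC, 1.17, 0.923 and 0.851 in ih_STC_BM, 1.77, 1.75 and 1.40 in ih_BCTC, 0.910, 1.25 and 0.918 in MDSC, and 1.39 and 1.47 in MSC. All ratios of these neighbours lay within 0.793 to 2.49, while mean Col4a1 levels were 269.9 CPM in C12 and 1.80 CPM in MDSC. The ratio of Col4a6 to Col4a5 varied more, at 0.531, 0.727 and 0.347 in C12, 0.322, 0.341 and 0.314 in ih_CTC, 0.122, 0.237 and 0.131 in ih_DCTC, 1.02, 0.481 and 0.269 in ih_STC_BM, 0.209, 0.257 and 0.196 in ih_BCTC, 0.492, 0 and 0 in MDSC, and 0.0105 and 0.00826 in MSC. In MSC it was near 0, with Col4a5 at 9.79 and 10.4 CPM and Col4a6 at 2 counts, and the ratio in MDSC rests on 2 counts as well. Col6a1 to Col6a2 was 1.81, 1.70 and 1.99 in C12, 2.60, 2.65 and 2.17 in ih_CTC, 1.93, 2.70 and 2.40 in ih_DCTC, 1.72, 2.58 and 1.41 in ih_STC_BM, 2.25, 2.37 and 2.47 in ih_BCTC, 1.38, 0.803 and 4.82 in MDSC, and 1.24 and 1.43 in MSC. In MDSC each value rests on few counts. Col6a3 to Col6a1 was 0.339, 0.308 and 0.185 in C12, 0.0986, 0.110 and 0.0977 in ih_CTC, 0.132, 0.814 and 0.292 in ih_DCTC, 0.0902, 0.0360 and 0.0468 in ih_STC_BM, 0.9995, 0.531 and 0.868 in ih_BCTC, and 0.131 and 0.159 in MSC. Among the line libraries it was highest in ih_BCTC and in replicate 2 of ih_DCTC, and lowest in those of ih_STC_BM. MDSC, with few counts of either gene, had 0.203, 0.0811 and 0.0811.

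**Figure D5:**
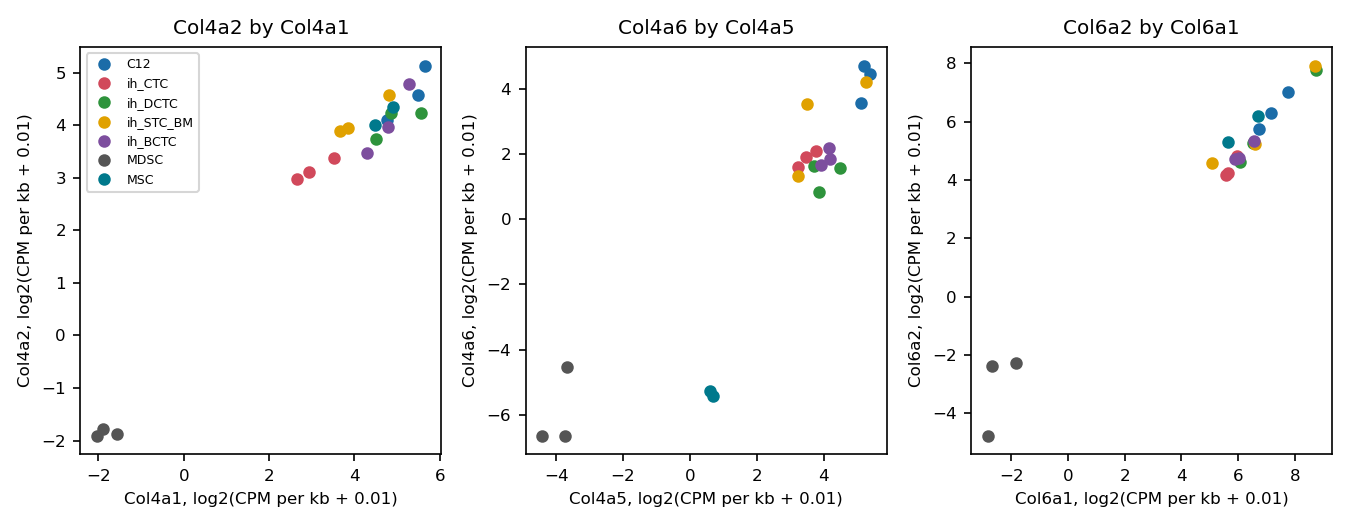
Levels of 3 pairs of chains that neighbour each other in the genome, as log2(CPM per kb + 0.01), with 1 point per library coloured by group. Col4a2 tracks Col4a1 and Col6a2 tracks Col6a1 across groups, whereas the MSC points for Col4a6 lie at the bottom while Col4a5 is at 9.79 and 10.4 CPM.

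Genes that make, process, bind or degrade collagen were read from the same fits. Beside their counts against MDSC, 31.3, 28.2 and 31.2% of all tested genes were called higher and 30.5, 27.1 and 28.1% lower in C12, ih_CTC and ih_DCTC. Of 19 tested biosynthesis genes, 18, 14 and 17 were higher in C12, ih_CTC and ih_DCTC than in MDSC, and none was lower. Their median log2 fold changes were 2.65, 2.75 and 3.52. Serpinh1, the chaperone that folds procollagen, had 1171, 1472 and 713 CPM in C12 libraries, 776, 729.9 and 855 CPM in ih_CTC libraries and 766, 603 and 605 CPM in those of ih_DCTC, against 0.994, 1.44 and 1.28 in MDSC. The groups were far apart, with adjusted p of at most 1.69e-11 in edgeR. Of 11 tested processing and crosslinking genes, 10, 9 and 10 were higher in these lines, and Adamts3 was lower in C12. Lox, which crosslinks fibrils, had 1782, 1971 and 1203 CPM in ih_CTC, against 1.44, 0.842 and 1.70 in MDSC. Of 9 tested receptor genes 5 were higher in each of the 3 lines, and Lair1, an inhibitory collagen receptor of leukocytes, was lower in each. Of 6 collagenases, Mmp2 and Mmp14 were higher in each line, and Mmp8, the neutrophil collagenase, was lower, at 0.330, 0 and 0.235 CPM in C12 against 557, 549 and 554 in MDSC.

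Against MSC, 33.1, 34.6, 34.1, 32.1 and 36.7% of all tested genes were called in C12, ih_CTC, ih_DCTC, ih_STC_BM and ih_BCTC for any direction. The share of the 19 biosynthesis genes called was near or below that. Of these genes, 2 were higher and 3 lower in C12, 1 and 5 in ih_CTC, 3 and 4 in ih_DCTC, 1 and 2 in ih_STC_BM, and 2 and 5 in ih_BCTC, of 19. Crtap, a partner of prolyl 3-hydroxylation, averaged 23.2 ± 4.93 CPM in C12 (SD, n = 3), against 184 and 155 in MSC, and was called lower in each line. Bmp1, which trims the C-propeptide of procollagen, and the N-propeptide protease Adamts2 were below MSC, while Adamts14, another N-propeptidase, was above it. Bmp1 had 29.7, 34.6 and 32.4 CPM in C12, against 164 and 156 in MSC, at -2.31 ± 0.34 (SE), adjusted p = 5.65e-05, with edgeR. Adamts2 had 4.88, 15.7 and 3.25 CPM in ih_BCTC, against 103 and 146 in MSC, at -3.96 ± 0.70 (SE), adjusted p = 2.64e-04, and in ih_STC_BM it was not called. Adamts14 had 80.6, 89.9 and 19.2 CPM in ih_STC_BM, against 3.33 and 9.04 in MSC, at 3.35 ± 0.55 (SE), adjusted p = 1.62e-04. Pcolce, the enhancer of that C-propeptide cleavage, was higher in C12, ih_DCTC, ih_STC_BM and ih_BCTC, and missed the threshold in ih_CTC, at 0.94 ± 0.42 (SE), adjusted p = 0.0965, with edgeR. Of the receptors, the discoidin receptor gene Ddr1 was higher in each line, at 2.70 ± 0.37 (SE), adjusted p = 2.89e-05, in C12 and 1.17 ± 0.35 (SE), adjusted p = 0.0145, in ih_CTC, with edgeR. Ctsk, a protease of osteoclasts and fibroblasts, had 0 counts in C12, at least 467-fold lower than its 63.4 and 29.9 CPM in MSC. Mmp13, an interstitial collagenase, had 0.370, 1.93 and 0.147 CPM in ih_STC_BM, against 233 and 105 in MSC, at -7.58 ± 1.02 (SE), adjusted p = 2.14e-05, and in ih_DCTC it was not called, on 31.8, 49.2 and 264 CPM. Macrophages and osteoclasts also express Ctsk and Lair1, and the macrophage markers were 4235 to 4913 CPM in MSC. Their part in these differences was not tested.

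The 12 members that were not tested were Col4a3, Col4a4, Col6a5, Col6a6, Col9a1, Col9a2, Col13a1, Col19a1, Col22a1, Col24a1, Col26a1 and Col28a1. Their highest level in any library was 2.71 CPM, of Col24a1, which had 26 and 10 counts in MSC, 0 in C12 and MDSC and 0 to 8 in the other lines, and Col9a1 had no count in any library. They were removed by the filter on low counts and not tested. Col4a3 and Col4a4, the neighbours that share a start region, stayed at up to 0.998 CPM; Col4a5 reached 275 CPM in C12. Of the tested members not described so far, Col10a1, the chain of hypertrophic cartilage, reached 3.75 CPM in MSC and was called lower than there in C12 and ih_CTC, Col14a1, a fibril-associated chain, reached 5.25 CPM in C12 and was called lower than MSC in ih_DCTC and ih_BCTC, and Col23a1, a transmembrane chain, reached 2.50 CPM in MSC and was called lower than there in ih_CTC, ih_STC_BM and ih_BCTC. Col15a1 was called lower than MSC in C12, ih_CTC and ih_STC_BM, Col27a1 in C12, ih_DCTC and ih_BCTC, and Col7a1 and Col9a3 were called higher than MSC in C12. Several of these calls were lost with 1 library left out. Those of Col14a1 were lost without replicate 2 or 3 of the line or either MSC library, at an adjusted p of up to 0.125 in ih_DCTC and 0.0815 in ih_BCTC with edgeR. That of Col7a1 was lost without either MSC library (up to 0.139), that of Col27a1 in C12 without replicate 2 of C12 or replicate 1 of MSC (up to 0.0864), and that of Col23a1 in ih_CTC without replicate 1 of MSC (0.0514). Col18a1, the source of endostatin, had 91.0, 130.5 and 51.4 CPM in C12, 48.3, 49.9 and 110.3 in ih_CTC, 144, 30.8 and 130.2 in ih_DCTC, 215, 149 and 79.8 in ih_STC_BM, 20.1, 29.9 and 87.2 in ih_BCTC, 1.66, 1.68 and 0.746 in MDSC, and 17.7 and 38.9 in MSC. It was called higher over MSC in ih_STC_BM, and not called in the other 4 lines, at 2.39 ± 0.75 (SE), adjusted p = 0.0209 with edgeR, and that call was lost without replicate 1 of MSC or of ih_STC_BM.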

How the data were processed

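Per the labels' protocols, RNA was taken with TRIzol and a TruSeq RNA kit served for the libraries. The authors deposited 1 table of expected counts per gene for 20 libraries. The submitters' processing notes name RSEM 1.2.26, STAR and DESeq2, with no role stated. For the genome build, the sources used here give none. Of the values, 8.37% were not whole, and the expected counts were rounded before testing. Totals ran from 8794768 to 12400624 counts per library, and 67.42 to 77% of reads were mapped, per the deposited quality table. That table also gives the intron share of each library as a percent, as the authors deposited it.

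Counts were scaled by TMM, filtered with filterByExpr (minimum count 10, minimum total 15), which kept 15779 of 43432 genes, and tested with the quasi-likelihood test of edgeR 4.0.16 in R 4.3.3, with Benjamini-Hochberg adjustment over all tested genes. All 20 libraries entered 1 fit without covariates, with 13 residual degrees of freedom. Groups came from the labels, and replicate numbers follow accession order. Of the 44 members, 32 were tested.

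Values per library are given for Col1a1, Col1a2, Col3a1, Col5a1, Col5a2, Col4a1, Col4a2 and Col6a1 to Col6a3, and for the called members with the largest changes that reach a mean of 5 CPM in the higher group. Other members and companion genes that are named were chosen after their values were seen. Members and lists were chosen with earlier results of these data known. The length behind CPM per kb is the transcript with the longest coding sequence. Promoters were matched to RefSeq by symbol, and 35 of 44 members had an entry. A fold against at most 3 counts is a count ratio with an exact 95% interval, and one against 0 is a bound at 3 counts over the group. These cover counting error only. Alternatives used RLE and upper quartile scaling, no filter, DESeq2 1.42.0, limma-voom (limma 3.58.1), the compared groups alone, a fold threshold, the intron share as a covariate, and libraries left out. The test was checked on simulated data for C12 against MDSC and ih_STC_BM against MSC. It called 2 of 64 and 1 of 63 genes set to change 2-fold. For 4-fold changes it called 36 of 63 and 31 of 64, and for 16-fold changes 59 of 64 and 57 of 64. Of unchanged genes it called 10 of 14729 and 2 of 14776. Changes of 2-fold were therefore mostly missed.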

Additional observations from a re-analysis of the deposited data

Results flagged for a closer look

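Members whose level differed among the 5 lines in edgeR's joint test are given here with their adjusted p, as a difference between groups in one test over the lines. The network chains of type IV were among them, with Col4a6 at 0.000846, Col4a1 at 0.00233, Col4a5 at 0.0199 and Col4a2 at 0.0232. The cartilage chains were Col9a3 at 8.68e-05, Col27a1 at 0.000625, Col11a1 at 0.00771 and Col2a1 at 0.0105. Other fibrillar chains were Col5a3 at 0.0248 and Col3a1 at 0.0279. The fibril-associated chains were Col14a1 at 0.00218 and Col12a1 at 0.0134. The remaining members were Col15a1 at 0.000197, Col25a1 at 0.00102, Col8a2 at 0.0123, Col6a3 at 0.0233, Col7a1 at 0.0407 and Col23a1 at 0.0485. Leaving out 1 library ended some of these calls. That of Col7a1 was lost without any 1 of 11 line libraries and that of Col23a1 without any 1 of 12, at an adjusted p of up to 0.0878 and 0.0917 in edgeR. That of Col3a1 was lost without any 1 of the C12 libraries or replicate 1 of ih_DCTC (up to 0.0968), and that of Col6a3 without any 1 of the ih_CTC libraries (up to 0.0765). That of Col4a2 was lost without replicate 2 of C12 or replicate 1 or 2 of ih_CTC (up to 0.0945), and also in a fit that holds the intron share (0.0621). That of Col4a5 was lost without replicate 1 of C12 or of ih_CTC (up to 0.0787), and that of Col5a3 without replicate 1 or 2 of ih_BCTC (up to 0.0649).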

How the results depend on the processing

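Without the 5 line libraries of intron share under 3%, the members called against MSC numbered 22 in ih_CTC, 16 in ih_DCTC and 21 in ih_BCTC, against 13, 10 and 11 with all libraries, while the share of all tested genes called was 54.8, 51.3 and 56.4%, against 34.6, 34.1 and 36.7%. With the compared groups alone they numbered 23 in ih_CTC and 17 in ih_BCTC, beside 60.0 and 58.4% of all tested genes. In C12, ih_DCTC and ih_STC_BM they numbered 15, 9 and 8, against 15, 10 and 11, beside 27.9, 27.5 and 14.4%. Members that differed among the 5 lines fell from 18 to 12 with the lines alone, beside 24.5% of all tested genes. The cause was not tested. Col11a2 in ih_DCTC against MDSC had a log2 fold change of 0.07 with the intron share as a covariate (adjusted p = 0.933 in edgeR). Col20a1 in ih_STC_BM against the other 4 lines had -0.66 without replicate 2 of ih_STC_BM (adjusted p = 0.5 in edgeR) and up to 2.67 with another library left out. Leaving out each library in turn gave 22 to 24 called members for C12, 20 to 22 for ih_CTC and 25 to 29 for ih_DCTC against MDSC. Against MSC it gave 12 to 17 for C12, 10 to 12 for ih_CTC, 5 to 10 for ih_DCTC, 8 to 14 for ih_STC_BM, 8 to 11 for ih_BCTC and 23 to 24 for MDSC, and 13 to 21 among the 5 lines. The lowest count, 5 in ih_DCTC, came without replicate 1 of MSC. The collagen share of counts then ran from 1.05 to 1.15% in C12, 0.754 to 0.808% in ih_CTC, 0.969 to 1.11% in ih_DCTC, 0.701 to 1.26% in ih_STC_BM, 0.731 to 0.978% in ih_BCTC, 0.00857 to 0.00876% in MDSC and 0.699 to 0.855% in MSC. With MDSC summed to 1 library, chosen after seeing the data, the counts were 23, 19 and 23 for C12, ih_CTC and ih_DCTC against MDSC and 23 for MDSC against MSC. RLE scaling moved the median of all genes by -0.144 in ih_CTC and -0.126 in ih_DCTC against MDSC, and upper quartile scaling by 0.271, 0.171 and 0.220 in C12, ih_CTC and ih_DCTC against MDSC and by -0.130 in MDSC against MSC. No paired analysis was possible because the labels give no replicate numbers. Members of a few CPM are limited by depth, and MSC by its 2 libraries.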
